A study of Mus musculus with 2 samples.

Results

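The 32 genes described here encode the protein folding and quality control machinery of the endoplasmic reticulum (ER) and the regulators of the unfolded protein response. They were taken by symbol from the feature table of the 2 single-cell libraries, where all 32 were found among 32285 features. By role they comprised 6 members of the Hsp70 chaperone system, 3 of an Hsp90 chaperone and secreted stress proteins, 2 lectin chaperones, 4 disulfide isomerases, 4 collagen folding proteins, 2 membrane translocation proteins, 4 proteins of ER-associated degradation, 2 of export and retrieval, 3 transcription factors, and 2 ATF4 targets of prolonged stress. The libraries came from knee joint cartilage of wild-type mice after sham surgery or DMM surgery (destabilization of the medial meniscus, a surgical model of osteoarthritis). Each library pooled cells of 3 mice, digested with collagenase and sorted as viable cells negative for CD45, Ter119 and CD31. With 1 library per surgery, no difference between the surgeries has a replicate check, and every interval given here covers counting error only. The age and strain of the mice and the time after surgery are not given in the sources used here.

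Secreted and membrane proteins enter the ER through the Sec61 channel and fold there with the help of chaperones, disulfide isomerases and glycan-binding lectins. When unfolded protein builds up, sensors in the ER membrane raise folding capacity through the transcription factors XBP1, ATF6 and ATF4. ATF6 and XBP1 act at the ER stress response element, and prolonged ATF4 signalling induces pro-apoptotic and redox genes such as Trib3 and Chac1. Fibrillar collagen needs its own helpers, among them HSP47 (Serpinh1) and prolyl isomerases, and cartilage and bone cells are known for a heavy load of collagen. Superficial cells of articular cartilage and synovial lining cells instead secrete lubricin (Prg4) and other matrix proteins.

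The promoters of 4 members are shown because they carry the motifs of the response, and that of Serpinh1 because it carries none of those searched. RefSeq promoter windows of GRCm38.p6 (250 bases before to 50 after the start site) were matched for 28 of the 32 members. No window was matched for Hyou1, Manf, Fkbp10 and Kdelr2. The ER stress response element was searched as CCAAT, any 9 bases, then CCACG, on both strands. It was found in 8 members (Hspa5, Dnajc3, Hsp90b1, Creld2, Calr, Canx, Pdia6 and Syvn1) and in 0.119% of all 32851 promoter windows of the same length. Its second form, ATTGG, any base, then CCACG, was found in Herpud1 and Dnajb11, and in 0.0365% of all windows. The XBP1-type element TGACGTGG was in none of the 28 member windows and in 0.676% of all windows. The ATF4-type element TGATGNAA was in Herpud1, Trib3 and Chac1 and in 3.97% of all windows. ATTGG is CCAAT read on the other strand, and no member held both forms of the stress element. Each sequence below is the 250 bases before the start site, 5′ to 3′ in gene orientation, with the motifs in capitals. They lie at chr2:34771840-34772089 (plus strand) for Hspa5, chr10:86705445-86705694 (minus strand) for Hsp90b1, chr12:17266339-17266588 (plus strand) for Pdia6, chr8:94386179-94386428 (plus strand) for Herpud1 and chr7:99353240-99353489 (minus strand) for Serpinh1.
Hspa5: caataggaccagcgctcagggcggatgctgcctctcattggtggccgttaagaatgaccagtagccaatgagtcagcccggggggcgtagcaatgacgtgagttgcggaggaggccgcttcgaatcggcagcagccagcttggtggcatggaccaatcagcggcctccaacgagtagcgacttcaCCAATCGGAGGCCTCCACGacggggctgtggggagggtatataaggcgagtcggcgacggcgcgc
Hsp90b1: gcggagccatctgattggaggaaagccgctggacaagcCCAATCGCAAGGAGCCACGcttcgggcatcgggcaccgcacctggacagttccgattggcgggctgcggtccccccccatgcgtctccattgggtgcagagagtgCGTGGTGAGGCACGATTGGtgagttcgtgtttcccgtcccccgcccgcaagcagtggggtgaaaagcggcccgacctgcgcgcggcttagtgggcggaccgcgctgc
Pdia6: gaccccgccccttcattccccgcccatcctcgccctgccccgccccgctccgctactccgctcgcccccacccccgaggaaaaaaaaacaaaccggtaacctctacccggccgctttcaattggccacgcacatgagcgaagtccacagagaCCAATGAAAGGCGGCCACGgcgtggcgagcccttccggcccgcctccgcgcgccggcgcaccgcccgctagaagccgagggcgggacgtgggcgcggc
Herpud1: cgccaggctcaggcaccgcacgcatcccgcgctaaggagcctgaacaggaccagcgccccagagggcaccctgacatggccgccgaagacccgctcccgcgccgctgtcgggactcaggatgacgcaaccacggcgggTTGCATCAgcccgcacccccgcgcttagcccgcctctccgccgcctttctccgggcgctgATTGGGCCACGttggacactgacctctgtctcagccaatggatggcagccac
Serpinh1: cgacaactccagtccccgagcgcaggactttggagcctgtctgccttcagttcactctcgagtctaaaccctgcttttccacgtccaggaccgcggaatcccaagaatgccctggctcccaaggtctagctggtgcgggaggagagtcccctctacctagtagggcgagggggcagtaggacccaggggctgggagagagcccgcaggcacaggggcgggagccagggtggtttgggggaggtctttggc
Hspa5 held 1 element, 65 bases before the start site, and Hsp90b1 held 2 on opposite strands, at 212 and 107 bases. In Pdia6 the element began 98 bases before the start site. Herpud1 held the second form at 52 bases and the ATF4-type element at 112 bases. Distances count from the RefSeq start sites. The GENCODE model of Hspa5 begins upstream of its RefSeq start, so that the element lies within that gene model. A match is a run of letters, not a measured binding site.

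The libraries held 11362 barcodes with 106799078 UMIs after sham surgery and 11076 barcodes with 97346999 UMIs after DMM. After filters both kept 9529 cells, with a median of 8064 and 7859 UMIs, and 17 barcodes were shared between the kept cells. Cells were clustered without the 32 genes and their wider pathway, so that the populations were not drawn by these genes. Of 27 clusters, 20 connective tissue clusters with at least 50 cells in each library were compared. Each is called by its closest class, with the suffix -like, and its leading genes. Of the cells kept, 1962 sham and 1984 DMM cells were superficial zone chondrocyte-like, although the label calls all of them superficial cells. The rest included 1567 and 1197 chondrocyte-like, 475 and 356 hypertrophic chondrocyte-like, 577 and 809 osteoblast-like, 1269 and 1225 fibroblast-like and 334 and 890 synovial lining-like cells. Despite the Ter119 gate, 1546 and 892 cells were erythroid-like. An unnamed histone-rich cluster of 160 sham and 77 DMM cells (1.68% and 0.808% of kept cells) was left out of connective tissue by a limit set after the values were seen: Sparc in at least 90% of cells. Levels are given in CPM, the UMIs of a gene scaled to the total UMIs of its population. They are not scaled to gene length, so levels are compared between populations and not between genes.

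Matrix load varied widely between the 20 populations. Collagen chains made up 12.4% of UMIs in sham and 14.2% in DMM in the osteoblast-like cells led by Car3 and Dmp1, and 5.94% and 5.21% in hypertrophic chondrocyte-like cells. They made up 5.72% and 4.95% in the chondrocyte-like cells led by A2m. They were 0.681% and 0.678% in the superficial cells led by Serpina1e, 0.923% and 0.782% in those led by Casr, and 0.293% and 0.285% in the perivascular-like cells led by Myh11. Other matrix proteins ran the other way in the superficial cells, at 17.0% and 16.8% in the Serpina1e cells, with Prg4 alone at 6.51% and 6.23%. The superficial clusters thus paired a low collagen share with the highest shares of other matrix, whereas the Myh11 perivascular-like cells were low in both.

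The members split over these populations. Serpinh1, Fkbp10, Sec61b, Ssr1 and Kdelr2 were highest in the collagen-rich Dmp1 osteoblast-like cells in both libraries. Hspa5, Dnajc3, Hsp90b1, Pdia3 and Xbp1 were highest in the collagen-poor Casr superficial cells in both libraries. Ppib, Pdia6 and Chac1 were highest in hypertrophic chondrocyte-like cells. Of the 32 members, 21 had the same highest population in both libraries, and 20 in sham and 16 in DMM were lowest in the Myh11 perivascular-like cells. The order of the 20 populations was alike in the libraries, with Spearman's rho from 0.53 for Calr to 0.98 for Serpinh1 and at least 0.8 for 24 members. The map of levels by population shows both blocks.

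**Figure D1:**
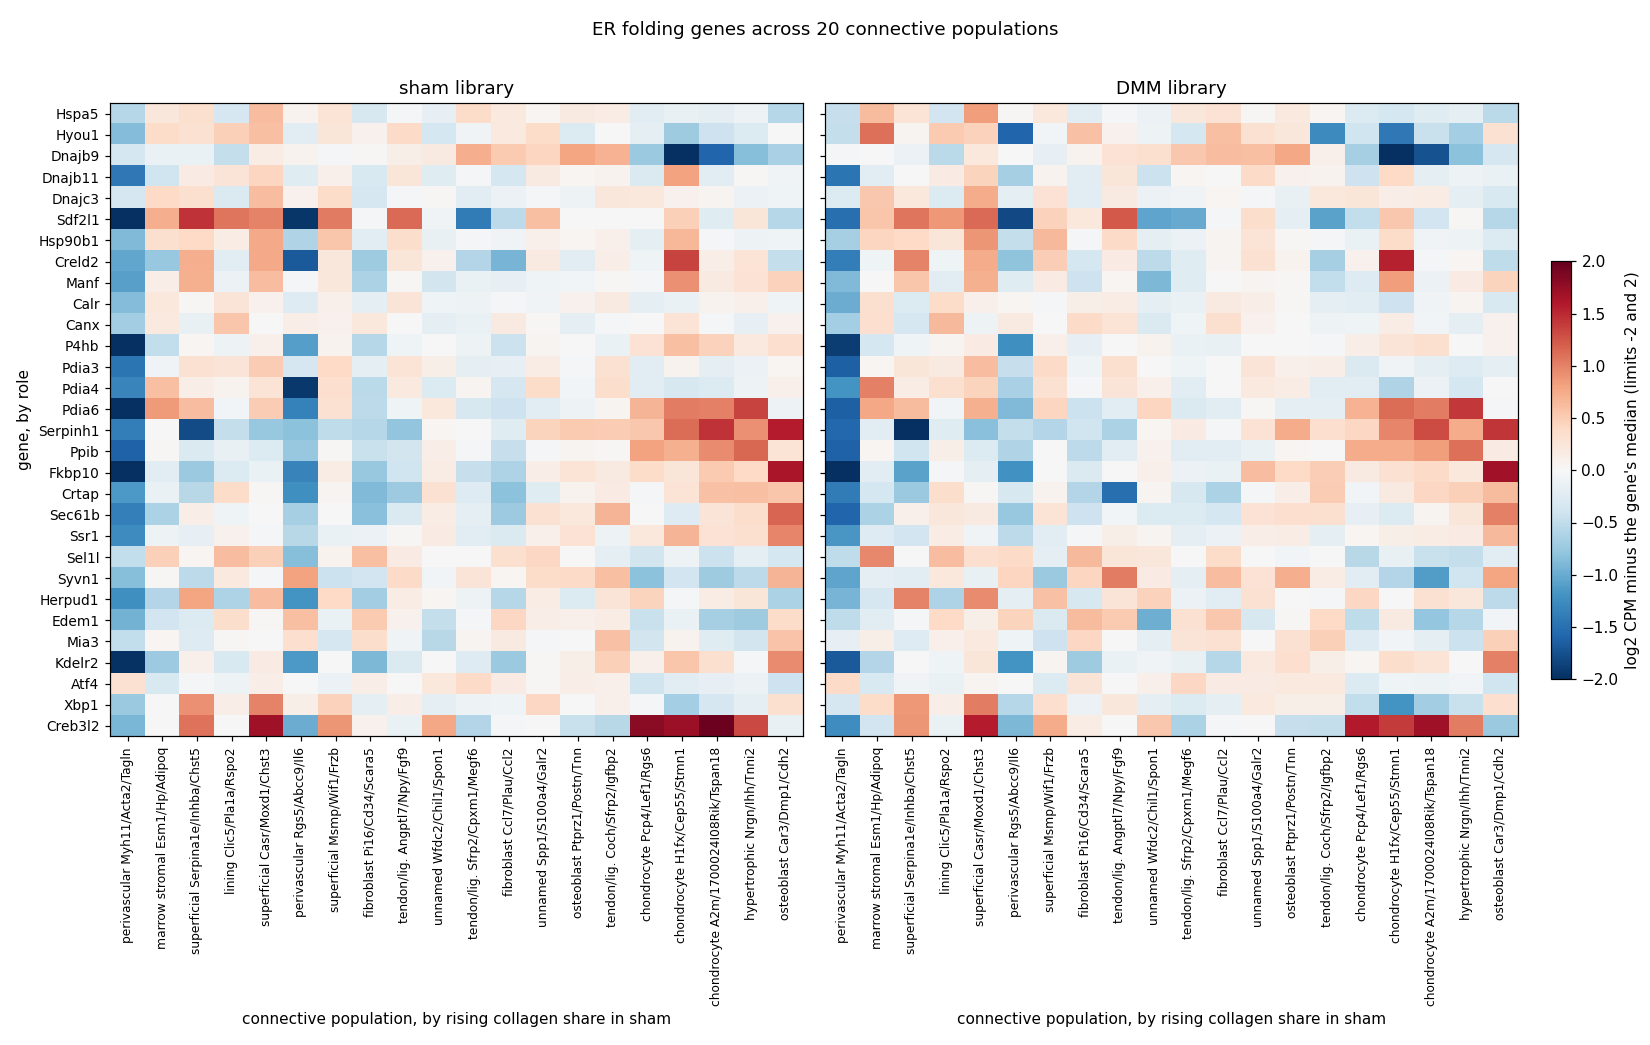
Level of 30 members (rows, by role; Trib3 and Chac1, with few UMIs, are left out) in 20 connective populations (columns, by rising collagen share in sham) in the sham (left) and DMM (right) libraries, as log2 CPM minus the gene's median over the populations. Serpinh1 and Fkbp10 are red at the collagen-rich right edge, while Hspa5, Xbp1 and Hsp90b1 are red in the superficial cells near the left edge, and the leftmost column of Myh11 perivascular-like cells is blue for most members.

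Among the collagen folding proteins and over all 20 populations, Serpinh1 and Fkbp10 followed the collagen chains more closely than Ppib and Crtap. Serpinh1, the collagen-specific chaperone, was at 2469 CPM in sham and 2569 CPM in DMM in Dmp1 osteoblast-like cells. The A2m chondrocyte-like cells held 2259 and 2364 CPM of it, and the median over the 20 populations was 830 and 958 CPM. Its lowest level was in the Serpina1e superficial cells, at 239 CPM (95% interval 228 to 251) in sham and 229 CPM (220 to 239) in DMM. These intervals lay below those of the next population, the Myh11 perivascular-like cells, at 318 CPM (292 to 346) and 323 CPM (291 to 356). The range was 10.3-fold in sham and 11.2-fold in DMM. Over the 20 populations, Pearson's r between log2 levels of Serpinh1 and log2 collagen share was 0.91 in sham and 0.88 in DMM. Populations within a library share its depth, their CPM share a total with the collagen UMIs, and r is given as a description only.

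Fkbp10, a prolyl isomerase of the collagen chain, had an r of 0.81 and 0.83. It was at 205 and 238 CPM in Dmp1 osteoblast-like cells and at 8.21 CPM (14 UMIs) and 12.4 CPM (15 UMIs) in Myh11 perivascular-like cells. Ppib, the cyclophilin B prolyl isomerase, was instead highest in hypertrophic chondrocyte-like cells, at 1315 and 1616 CPM, and only 717 and 843 CPM in Dmp1 osteoblast-like cells. Crtap, a partner in prolyl 3-hydroxylation, ranged 3.56-fold and 4.42-fold, with r of 0.63 and 0.61. Thus Serpinh1 and Fkbp10 peaked in the Dmp1 osteoblast-like cells, and Ppib in hypertrophic chondrocyte-like cells.

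Across all members, 8 had r of at least 0.5 with collagen in both libraries: Serpinh1, Fkbp10, Ssr1, Kdelr2, Ppib, Sec61b, P4hb and Crtap. Only Serpinh1, Fkbp10 and Ssr1 reached 0.7 in both. In every one of these populations, 2267 genes had at least 50 UMIs over both libraries together. Of these, 5.91% reached 0.5 in both libraries, against 6 of the 20 members so well counted. The 2 populations farthest from the median load were the Myh11 perivascular-like and the Dmp1 osteoblast-like cells. Without them Serpinh1 stood at 0.88 and 0.83, Fkbp10 at 0.66 and 0.67, Ppib at 0.74 and 0.55 and Ssr1 at 0.64 and 0.54. Those 4 of the 8 stayed at 0.5 or more in both libraries. Sec61b (0.44 and 0.27), Kdelr2 (0.52 and 0.39), P4hb (0.55 and 0.32) and Crtap (0.46 and 0.39) did not, so that their relation rested on these populations.

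**Figure D2:**
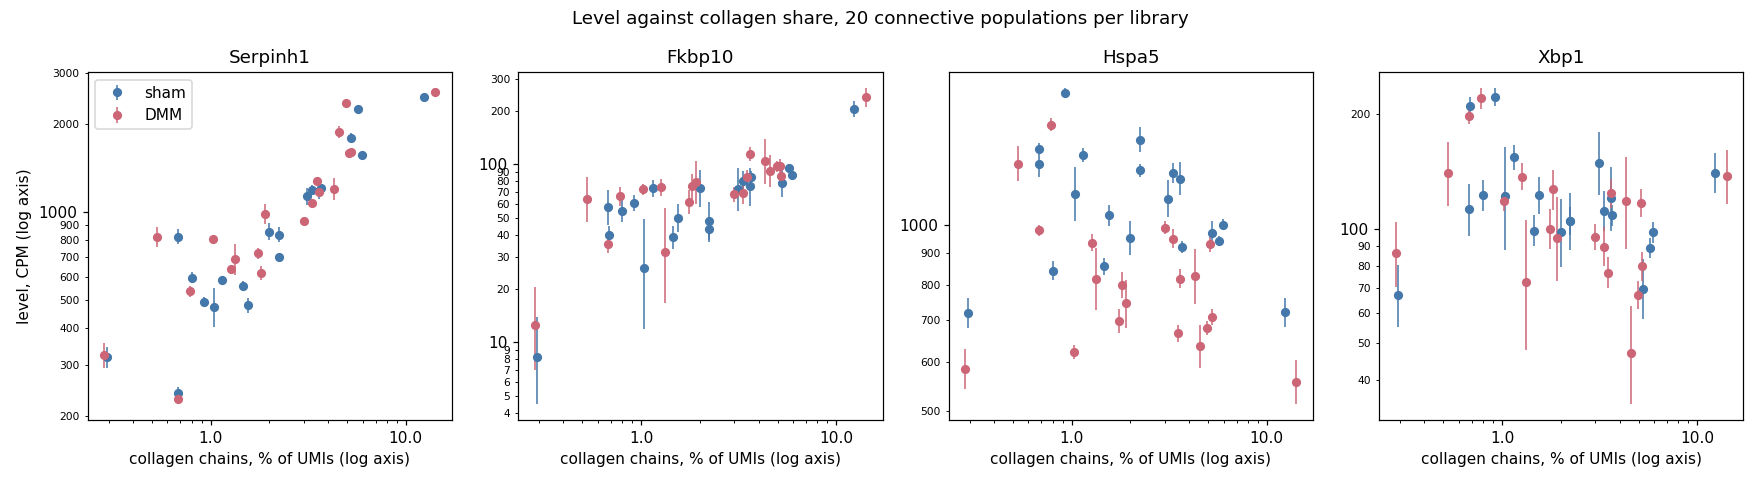
Level in CPM (vertical, log axis) against the share of UMIs from collagen chains (horizontal, log axis) for Serpinh1, Fkbp10, Hspa5 and Xbp1 in 20 connective populations of the sham (blue) and DMM (red) libraries, with 95% Poisson intervals. Serpinh1 climbs from 239 and 229 CPM in Serpina1e superficial cells to 2469 and 2569 CPM at the highest collagen share, while the highest Hspa5 points, 1632 and 1449 CPM, lie at a collagen share under 1%.

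The members of the Hsp70 system had no shared peak: Hspa5 and Dnajc3 were highest in Casr superficial cells in both libraries, and the other members elsewhere in at least 1 library. Hspa5, the central ER chaperone BiP, encoded at chr2:34771970-34777547 on GRCm38, was at 1632 CPM (1600 to 1664) in sham and 1449 CPM (1414 to 1486) in DMM in the Casr superficial cells. Its median over populations was 1068 and 808 CPM. In the Dmp1 osteoblast-like cells, with the most collagen, it was at 722 and 557 CPM, and in Myh11 perivascular-like cells, with the least, at 719 and 585 CPM. Both ends of the collagen range were therefore low. Its r with collagen was -0.20 and -0.35 and was unstable. When the unnamed histone-rich cluster was counted as connective tissue it was 0.11 and 0.28. With other matrix proteins, a different load, r was 0.22 and 0.12. Without the Myh11 and Dmp1 populations the r of Hspa5 with collagen was -0.35 and -0.52. That of Xbp1 went from -0.15 and -0.34 to -0.63 and -0.66. For Hyou1 it went from -0.23 and -0.23 to -0.72 and -0.48.

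Dnajb9, the ERdj4 co-chaperone, had a pattern of its own. It was highest in osteoblast-like cells led by Ptprz1 and Postn, at 214 CPM (196 to 233) and 199 CPM (187 to 213), and lowest in the proliferating chondrocyte-like cells led by H1fx and Cep55, at 27.9 CPM (49 UMIs) and 25.0 CPM (25 UMIs). The A2m chondrocyte-like cells, at 41.3 and 34.9 CPM, were also low. Sdf2l1, a partner of Hspa5, was at 61.1 and 59.5 CPM in the Serpina1e superficial cells and at 1.76 CPM (3 UMIs) and 9.95 CPM (12 UMIs) in Myh11 perivascular-like cells. Hyou1, a nucleotide exchange factor for Hspa5, reached at most 35.6 CPM in sham, in Casr superficial cells, and 34.7 CPM in DMM, in marrow stromal-like cells. Dnajc3, which restrains the sensor PERK, ranged 1.94-fold and 2.06-fold, and Dnajb11, another co-chaperone, 4.71-fold and 3.72-fold.

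Among the Hsp90 and secreted stress proteins, Hsp90b1 (GRP94) was at 927 and 875 CPM in Casr superficial cells and at 297 and 299 CPM in Myh11 perivascular-like cells. Creld2, a secreted stress protein with an ER stress element in its promoter window, and Manf, a secreted survival factor, peaked in the proliferating chondrocyte-like cells. Creld2 was there at 70.7 and 82.1 CPM and Manf at 367 and 471 CPM. Of the lectin chaperones, Calr ranged 2.18-fold and 2.57-fold, and Canx 2.37-fold and 2.49-fold, with Canx highest in synovial lining-like cells at 367 and 316 CPM.

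The disulfide isomerases did not move as a block. P4hb, also the beta subunit of collagen prolyl 4-hydroxylase, was at 471 and 401 CPM in A2m chondrocyte-like cells and at 81.5 and 86.2 CPM in Myh11 perivascular-like cells. Its r with the share of other matrix proteins, 0.85 and 0.87, was above its r with collagen, 0.70 and 0.57. Pdia3, which works with the lectin chaperones, was highest in Casr superficial cells at 672 and 604 CPM. Pdia6 was at 585 and 643 CPM in hypertrophic chondrocyte-like cells and at 215 and 239 CPM in Dmp1 osteoblast-like cells, so that the population with the most collagen did not have the most of it. Pdia4 was highest in marrow stromal-like cells at 118 and 111 CPM.

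**Figure D3:**
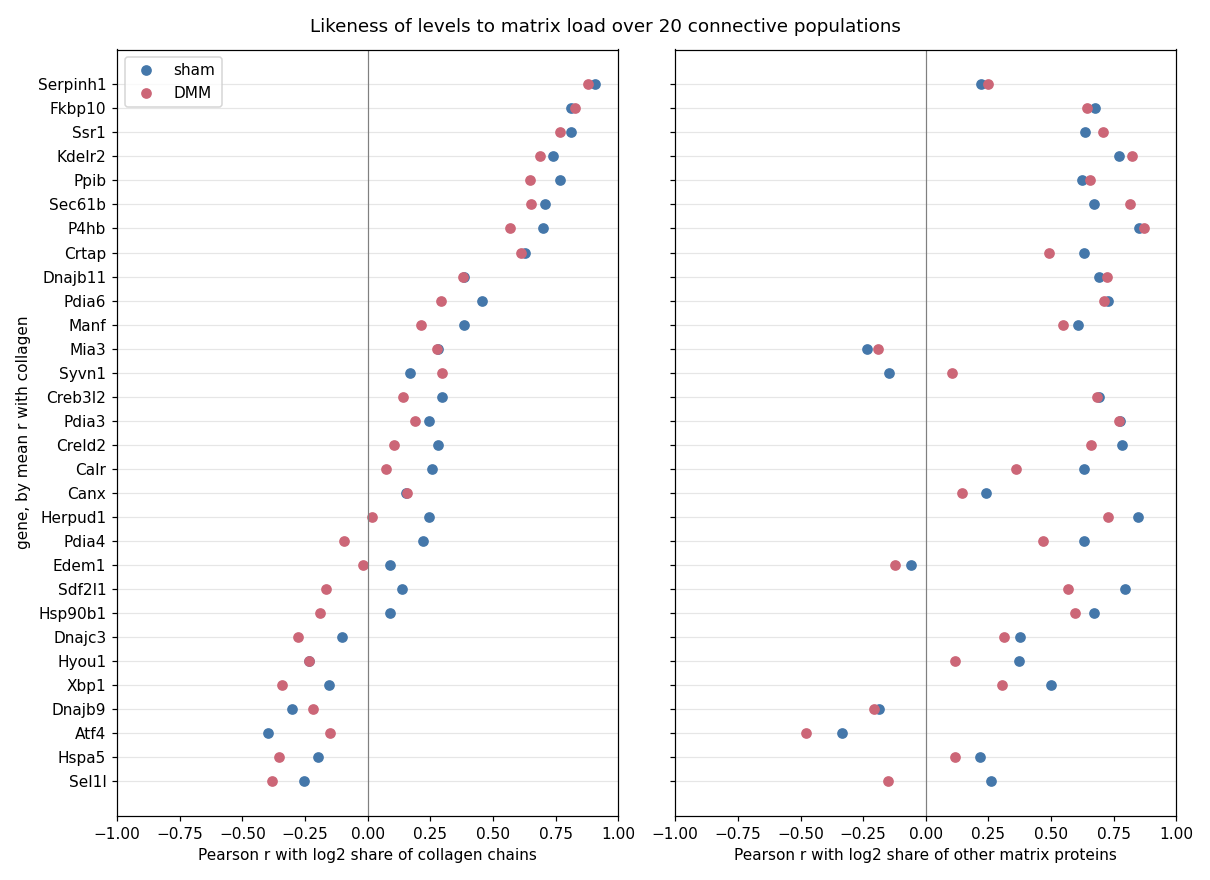
Pearson's r over 20 connective populations between log2 level and the log2 share of UMIs from collagen chains (left) or from other matrix proteins (right) for 30 members (rows, by mean r with collagen), in the sham (blue) and DMM (red) libraries. Serpinh1 has the highest r with collagen, 0.91 and 0.88, but 0.22 and 0.25 with other matrix, whereas P4hb reaches 0.85 and 0.87 and Herpud1 0.85 and 0.72 with other matrix.

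Translocation, degradation and export differed as well. Sec61b, a subunit of the entry channel, was at 670 and 812 CPM in Dmp1 osteoblast-like cells, as was Kdelr2, the receptor that returns chaperones to the ER, at 479 and 592 CPM. Ssr1, a translocon-associated subunit, was at 250 and 211 CPM in the same cells. Mia3 (TANGO1), which loads collagen into export carriers, ranged only 2.22-fold and 1.88-fold, and its r with collagen was 0.28 in both libraries. Herpud1, a degradation adaptor induced by ER stress, was at 276 CPM (264 to 289) and 341 CPM (330 to 353) in Serpina1e superficial cells and at 103 and 119 CPM in Dmp1 osteoblast-like cells. Its r was 0.25 and 0.02 with collagen. Sel1l and Syvn1, the core of the degradation ligase, and Edem1, which hands over misfolded glycoproteins, each stayed below an r of 0.5 with collagen. Their highest levels were 95.8 and 112 CPM for Sel1l, 26.1 and 24.3 CPM for Syvn1 and 66.6 and 55.0 CPM for Edem1. Each peaked in a different population in sham and in DMM. The sham peaks of Syvn1 and Edem1 were in the perivascular-like cells led by Rgs5. That population had only 70 sham cells with 345106 UMIs in all, so these 2 peaks rest on few UMIs.

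The 3 transcription factors had 3 different patterns. Xbp1 was at 222 CPM (210 to 234) and 221 CPM (207 to 235) in Casr superficial cells, at 211 and 198 CPM in Serpina1e superficial cells, and at 141 and 137 CPM in Dmp1 osteoblast-like cells. These counts do not separate spliced from unspliced Xbp1, so the activity of the factor was not measured. Creb3l2 (BBF2H7), a membrane-bound factor known for its role in chondrocyte secretion, was at 583 CPM (569 to 597) and 440 CPM (426 to 455) in A2m chondrocyte-like cells. Its level was 484 and 405 CPM in Casr superficial cells but 135 and 81.5 CPM in Dmp1 osteoblast-like cells. Atf4 varied least of all members outside the Trib3 and Chac1 pair, 1.75-fold and 1.76-fold, and was highest in the tendon or ligament-like cells led by Sfrp2 and Cpxm1 at 283 and 308 CPM.

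Trib3 and Chac1 had few UMIs. Trib3 had 151 UMIs in 7717 sham connective cells and 135 in 8492 DMM cells, 1.98 and 1.78 CPM, against 1.57 and 0.968 CPM in erythroid-like cells. After each cell was thinned to 2000 UMIs, a Trib3 UMI was seen in 0.155% of sham and 0.662% of DMM superficial cells (1.78% and 2.47% before thinning), and in 0.338% and 0.470% of erythroid-like cells. Median depth was 7764 and 7971 UMIs in superficial and 7778 and 9303 UMIs in erythroid-like cells. The 95% intervals of these thinned shares overlapped between the cell types in each library, so the thinned shares did not separate them. In unthinned sums, Trib3 was at 4.32 CPM (2.91 to 6.17) in sham and 5.48 CPM (4.10 to 7.19) in DMM in the Serpina1e superficial cells, above the erythroid-like level in both libraries. The whole superficial class was at 2.17 CPM (1.53 to 2.97) and 3.09 CPM (2.33 to 4.01). Synovial lining-like cells held 4.76 and 1.66 CPM of Trib3, and the H1fx chondrocyte-like cells 5.70 CPM (10 UMIs) and 2.00 CPM (2 UMIs). Neutrophil lineage-like cells, outside connective tissue, held 45.2 CPM (17 UMIs) and 7.45 CPM (3 UMIs). Chac1 was at 0.174 and 0.176 CPM in erythroid-like cells. It stood above that level in hypertrophic chondrocyte-like cells (8.06 and 15.7 CPM) and in chondrocyte-like cells (4.87 and 5.74 CPM). The superficial class (2.34 and 2.65 CPM) and the tendon or ligament-like cells led by Angptl7 (5.28 and 3.82 CPM) were also above it. In fibroblast-like cells Chac1 was at 0.511 CPM (5 UMIs) in sham and 0.442 CPM (4 UMIs) in DMM. Both 95% intervals held the erythroid-like level, so fibroblast-like cells were not separated from it. Serpinh1, by contrast, was seen after thinning in 87.5% and 90.5% of chondrocyte-like cells and in 2.98% and 4.23% of erythroid-like cells.

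The members most alike in level over the 20 populations fell along the division of the members described above. These r come from the same values and are not a second line of evidence. The 3 members closest to Hspa5 were Dnajc3 (r 0.64 and 0.73), Xbp1 (0.58 and 0.59) and Hsp90b1 (0.57 and 0.63). The 3 closest to Serpinh1 were Fkbp10 (0.77 and 0.80), Ppib (0.79 and 0.73) and Ssr1 (0.76 and 0.73). Between Hspa5 and Serpinh1 r was -0.27 and -0.36. Creb3l2 was closest to Pdia6 (0.80 and 0.82).

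Class sums add up the UMIs of the same cells, with more UMIs per value, and are not a second line of evidence. They gave the contrast for part of the members, and Sec61b, Ssr1, Kdelr2, Dnajc3 and Pdia3 were not counted between chondrocyte-like and superficial cells. A member was counted when it differed by at least 1.5-fold in the same direction in both libraries. Between chondrocyte-like and superficial cells, 5 of 32 members were higher in chondrocyte-like cells, against 21.2% of the 12485 genes tested, and 6 were lower, against 20.8%. Both counts were below the background shares. The higher members were Serpinh1, Ppib, Fkbp10, Creb3l2 and Chac1. Serpinh1 was at 1807 CPM against 415 CPM in sham, 4.35-fold (4.24 to 4.46), and at 1911 against 399 CPM in DMM, 4.79-fold (4.67 to 4.92). Ppib was 2.11-fold and 2.09-fold higher. The lower members were Sdf2l1, Dnajb9, Xbp1, Hyou1, Hspa5 and Hsp90b1. Xbp1 was at 95.2 against 201 CPM in sham and at 69.4 against 189 CPM in DMM. Hspa5 was at 935 against 1426 CPM in sham, 1.52-fold lower, and at 673 against 1081 CPM in DMM, 1.61-fold lower. With median-of-ratios scaling 3 members in place of 6 were lower. Of the 8 members with the ER stress element, Hspa5 and Hsp90b1 were among the 6 lower and none among the 5 higher. Over all genes the shares were 20.8% lower and 21.2% higher, and with so few members no link to the element can be read. Fkbp10, among the 5 higher, and Hyou1, among the 6 lower, had no matched promoter window.

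Between osteoblast-like and superficial cells, 3 of 30 members tested were higher (Serpinh1, Fkbp10 and Syvn1), against 24.5% of genes. The 6 lower members, against 15% of genes, were Creb3l2, Sdf2l1, Herpud1, Creld2, Xbp1 and Pdia6. Creb3l2 was at 121 against 365 CPM in sham and at 95.5 against 282 CPM in DMM. Between osteoblast-like and chondrocyte-like cells, 3 of 31 were higher (Dnajb9, Syvn1 and Edem1), against 28.2% of genes, and 4 were lower (Creb3l2, Chac1, Pdia6 and Ppib), against 18.4%. Dnajb9 was 2.91-fold (2.65 to 3.21) and 3.64-fold (3.31 to 4.01) higher in osteoblast-like cells. Serpinh1 differed little between these class sums, at 0.966-fold and 0.931-fold. The osteoblast-like class joined 415 sham and 725 DMM cells led by Ptprz1 with 162 and 84 Dmp1 cells. In the Dmp1 cells alone Serpinh1 was at 2469 and 2569 CPM, above the chondrocyte-like sums. The direction of Serpinh1 and that of Hspa5 between these classes turned with the clustering resolution.

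**Figure D4:**
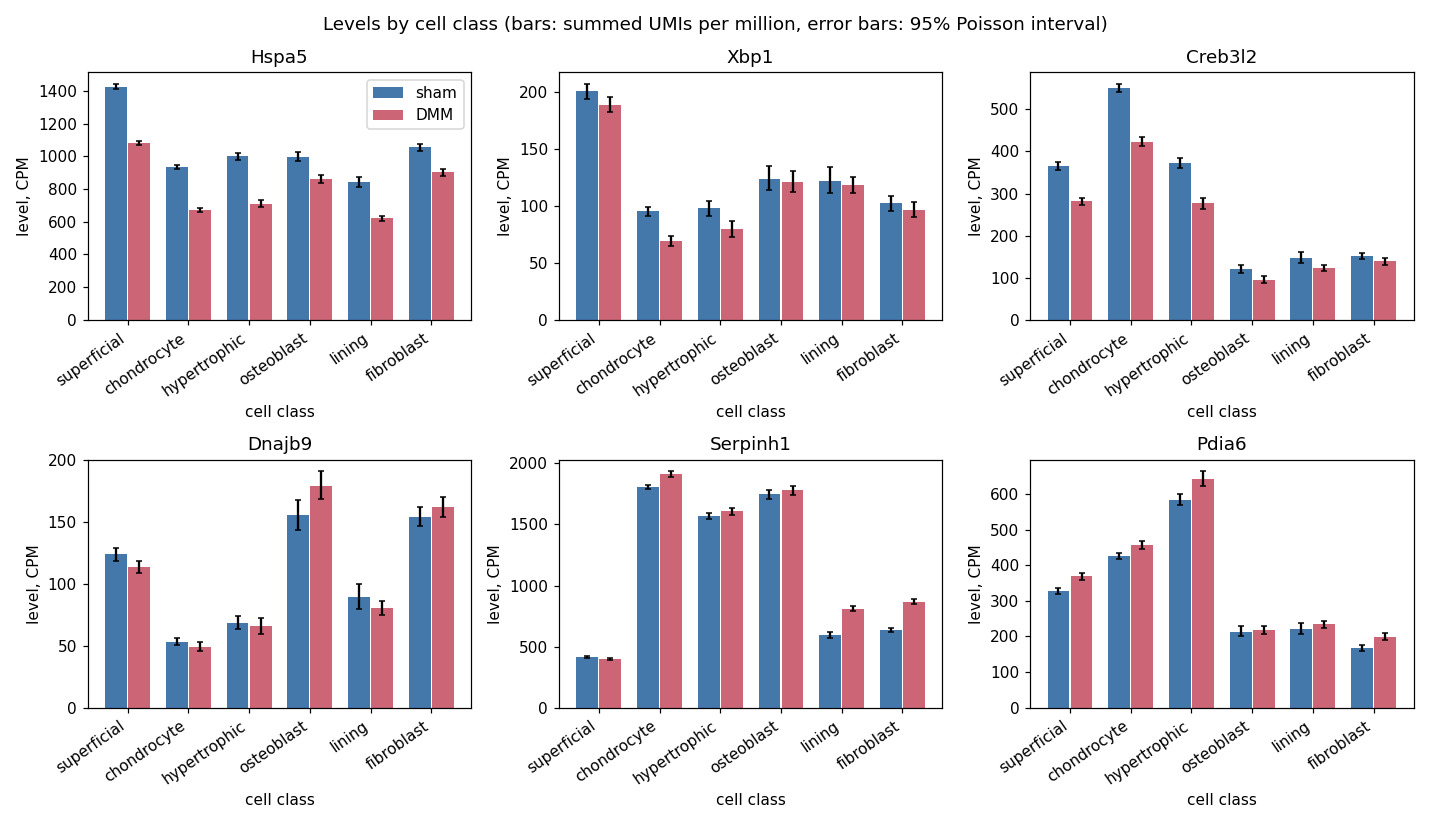
Level in CPM of 6 members (panels) in 6 cell classes (horizontal) of the sham (blue) and DMM (red) libraries, with bars from 0 and 95% Poisson intervals. Hspa5 and Xbp1 are highest in superficial cells (1426 and 1081, 201 and 189 CPM), Creb3l2 in chondrocyte-like cells, Pdia6 in hypertrophic chondrocyte-like cells, and Serpinh1 in chondrocyte-like cells (1807 and 1911 CPM), where it is 4.35-fold and 4.79-fold above superficial cells.

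The wider pathway, 113 genes on 8 lists, was read the same way against the background percentages given above. Osteoblast-like counts and levels here are sums over the joined class and are not split by cluster. Stress sensors and their processing had 4 of 9 higher and none lower in osteoblast-like than in chondrocyte-like cells: Creb3l1, Atf6, Ern1 and Eif2ak3, the last 3 being the sensors themselves. Creb3l1 (OASIS), a membrane-bound factor known from bone, was at 249 and 259 CPM in osteoblast-like cells against 146 and 127 CPM in chondrocyte-like cells. Superficial cells had 63.1 and 44.9 CPM of it, whereas its relative Creb3l2 was highest in chondrocyte-like cells. ATF4 branch targets had 7 of 12 higher in osteoblast-like than in chondrocyte-like cells, and 1 lower, Sesn2. Ranked by the smaller of their ratios in the libraries, the first 3 were the lipoprotein receptor Vldlr, Psat1 of serine synthesis and the phosphatase subunit Ppp1r15a. Vldlr was at 134 and 150 CPM against 19.7 and 11.7 CPM. Collagen prolyl and lysyl modification had 5 of 12 higher in chondrocyte-like than in superficial cells. Of these the lysyl hydroxylase Plod2, named after its values were seen, was at 1543 and 1295 CPM against 564 and 531 CPM. It had 3 lower, with the prolyl 3-hydroxylase P3h2 at 18.7 and 13.9 CPM against 277 and 243 CPM. Fkbp11, among 4 of 14 other isomerases higher in osteoblast-like than in chondrocyte-like cells, was at 152 and 122 CPM against 46.2 and 49.2 CPM. Coat proteins and cargo receptors had none of 20 that differed between chondrocyte-like and superficial cells.

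Between DMM and sham, few members passed 1.5-fold within a class. In superficial cells 1 of 32 did, against 17.6% of genes, and in chondrocyte-like cells 1 of 32, against 11.3%. In hypertrophic chondrocyte-like cells 3 of 31 did, against 16.4%, in synovial lining-like cells 2 of 30, against 19.2%, and in fibroblast-like cells 5 of 30, against 17%. In osteoblast-like cells none of 30 did, against 19.7%. These shares count both directions, and so counted no class exceeded its background. All 5 in fibroblast-like cells were higher, and the share of genes higher in that class is not given here. Over the members, the log2 ratio (DMM over sham) had a median of -0.08 in superficial cells against -0.16 over all genes, -0.07 against -0.16 in chondrocyte-like cells, and -0.04 against -0.12 in osteoblast-like cells. It was -0.06 against -0.18 in hypertrophic chondrocyte-like, 0.06 against -0.10 in synovial lining-like and 0.23 against -0.05 in fibroblast-like cells. The superficial class held 662 Serpina1e and 817 Casr cells in sham but 1010 and 538 in DMM, so that cluster values are given beside it. The osteoblast-like class held 162 Dmp1 cells in sham and 84 in DMM, and the fibroblast-like class 582 and 377 Pi16 cells.

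Hyou1 was the member past 1.5-fold in superficial cells, at 30.9 CPM (542 UMIs) in sham and 17.8 CPM (323 UMIs) in DMM, 1.73-fold lower (1.51 to 2.00). It was lower in each superficial cluster, from 28.8 to 16.8 CPM in the Serpina1e cells, from 35.6 to 22.4 CPM in the Casr cells and from 27.7 to 15.6 CPM in those led by Msmp. It was also 1.58-fold lower (1.32 to 1.90) in chondrocyte-like cells and 1.91-fold lower (1.43 to 2.60) in hypertrophic chondrocyte-like cells. In hypertrophic chondrocyte-like cells Pdia4 was 1.67-fold lower, at 71.8 and 43.1 CPM, and Chac1 1.94-fold higher (1.42 to 2.66), from 75 and 96 UMIs, of which 1 DMM cell held 12.5%. In synovial lining-like cells Ppib was 1.53-fold higher, at 535 and 819 CPM, and Sec61b 1.68-fold higher, at 280 and 471 CPM.

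Fibroblast-like cells had 5 members higher in DMM. Sdf2l1 was at 18.6 and 29.3 CPM, Creld2 at 15.7 and 27.1 CPM, Manf at 151 and 242 CPM, Fkbp10 at 41.2 and 65.7 CPM and Sec61b at 174 and 311 CPM. In both fibroblast clusters, led by Ccl7 and by Pi16, all 5 were higher in DMM, though for Creld2 in the Pi16 cells the interval of the log2 ratio, -0.14 to 0.88, held 0. The collagen share in fibroblast-like cells was 1.88% in sham and 2.62% in DMM. Its part in these differences was not tested.

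Smaller differences repeated from population to population. Hspa5 was lower in DMM in 19 of 20 populations, each with an interval below 0, and the exception was the marrow stromal-like cells at 1253 and 1255 CPM. Its median log2 ratio was -0.43. In the Serpina1e superficial cells it was at 1326 and 979 CPM, in the A2m cluster at 942 and 682 CPM and in the Casr cells at 1632 and 1449 CPM. Pdia3 and Canx were lower in all 20 populations, with medians of -0.30 and -0.30 and with 19 and 14 intervals below 0. Creb3l2 was lower in 19 of 20 (12 intervals below 0), Hsp90b1 in 19 (15 intervals), and Pdia4 in 18 of 19 tested (14 intervals), with a median of -0.43. Ppib and Sec61b were higher in all 20 populations, with medians of 0.31 and 0.41 and with 20 and 16 intervals above 0. Manf was higher in 18, Kdelr2 in 19 and Herpud1 in 19, with medians of 0.35, 0.31 and 0.27 and with 17, 16 and 11 intervals above 0. The populations share 1 sham and 1 DMM library and are not replicates.

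Such runs were common among all genes. Of the 2267 genes tested in all 20 populations, 18.7% were lower in DMM in every population and 13.7% were higher in every one, against 2 and 2 of the 20 members tested in all. The median log2 ratio over all genes was itself below 0, from -0.19 to -0.01 over the populations. With median-of-ratios scaling, which brings that median near 0, Hspa5 was lower in 18 of 20 populations (median -0.27), Pdia4 in 18 of 19, and Canx and Pdia3 in 18 of 20. Hyou1 was then lower in 12 of 15, Creb3l2 in 15 of 20 and Xbp1 in 8, against 14, 19 and 15 with CPM. With that scaling Hsp90b1 was lower in 12 and higher in 8, while Ppib, Sec61b, Manf, Kdelr2, Serpinh1 and Atf4 were higher in all 20. The shares of 18.7% and 13.7% hold for CPM. The share of all genes with such runs under median-of-ratios scaling is not given here, so these counts have no background.

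**Figure D5:**
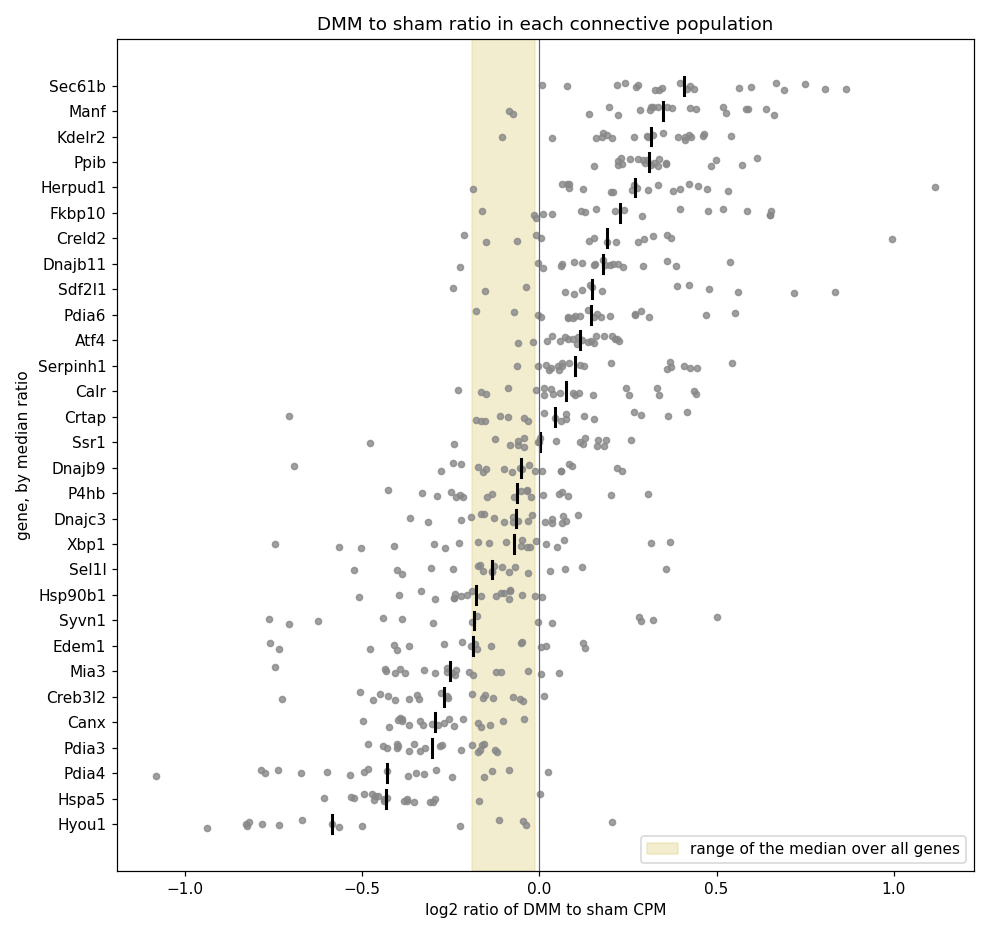
Log2 ratio of DMM to sham CPM (horizontal) for 30 members (rows, by median; Trib3 and Chac1 were tested in at most 3 populations and are left out) in each connective population with enough UMIs (grey points), with the median as a black bar and the range of the median over all genes as a shaded band. Hyou1, Hspa5 and Pdia4 lie left of the band at -0.59, -0.43 and -0.43, and Sec61b, Manf, Kdelr2 and Ppib lie right of it at 0.41 to 0.31.

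Gene span moved with these ratios. Across all genes tested, Spearman's rho between log2 ratio and gene span was from -0.50 to -0.43 in the 6 classes, longer genes being lower in DMM, and over the members it was from -0.47 to -0.21. With that trend removed and both directions counted, 2 of 32 members passed 1.5-fold in superficial cells, against 13.3% of genes. In chondrocyte-like cells 3 of 32 passed, against 9.48%. All were lower in DMM: Hspa5 and Hyou1 in both classes, and Xbp1 in chondrocyte-like cells. In synovial lining-like cells 2 of 30 passed, against 13.1%: Hspa5 and Hyou1, both lower, and no longer Ppib and Sec61b. In fibroblast-like cells Creld2, Manf and Sec61b passed, all higher (3 of 30, against 13.3%). In hypertrophic chondrocyte-like cells 4 of 31 passed, against 12.4%: Chac1, higher, and Hspa5, Hyou1 and Pdia4, lower. In osteoblast-like cells 0 of 30 passed, against 16%. Hspa5 spans 5578 bases. The share of UMIs from 14 dissociation and heat shock genes was 0.503% and 0.498% in superficial cells and 0.731% and 0.796% in chondrocyte-like cells. It was 0.921% and 0.891% in fibroblast-like cells, where 5 members were higher before the trend on gene span was removed. The part of these genes in the differences was not tested.

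Among the wider lists in superficial cells, ATF4 branch targets had 4 of 11 higher in DMM, against 3.41% of genes, and none lower, against 14.2%. They were Asns, Vldlr, Nupr1 and Phgdh. Asns, asparagine synthetase, was at 13.2 and 22.2 CPM, and Nupr1, a stress-induced chromatin protein, at 390 and 606 CPM. By cluster, Nupr1 was higher in all 3 superficial clusters, at 554 and 805 CPM in the Serpina1e, 272 and 389 CPM in the Casr and 297 and 385 CPM in the Msmp cells. Asns was at 23.6 and 32.6 CPM in the Serpina1e and 5.02 and 15.2 CPM in the Casr cells, but at 8.16 and 6.51 CPM in the Msmp cells, where the interval of the log2 ratio held 0. Vldlr was at 34.3 and 44.8 CPM in the Serpina1e cells, which made up more of the class in DMM, and its interval in the Casr cells held 0. Within single clusters Nupr1 stayed below 1.5-fold, and Phgdh rested on 12 and 34 UMIs in the Serpina1e cells and fewer elsewhere. In chondrocyte-like cells 2 of 12 were lower, Vldlr and Psat1, against 9.79% of genes, and none higher, against 1.47%. Psat1 rested on few UMIs in sham and DMM: 17 and 11 in the A2m, 11 and 1 in the Pcp4 and 29 and 9 in the H1fx cells. Its interval held 0 in the A2m and H1fx cells, and that of Vldlr held 0 in the H1fx cells. Of the stress sensors in superficial cells 1 of 9 was lower, Eif2ak3 (PERK), at 46.5 and 30.0 CPM, and it was lower in all 3 clusters. No member of the translocon list (17 genes) or the list of coat proteins and cargo receptors (20 genes) passed 1.5-fold in superficial or chondrocyte-like cells.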

How the data were processed

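Single-cell 3′ libraries of the sham and DMM groups, 1 each, were read as deposited UMI counts per gene and cell, made by the authors with Cell Ranger 7.1.0 per the file headers. The submitters' processing notes name Cell Ranger 3.0.1 and mm10. Depth ran from 500 to 65956 UMIs per sham barcode and from 500 to 76727 per DMM barcode. Barcodes entered with 500 genes or more and mitochondrial UMIs of no more than 10%, and Scrublet doublets (463 sham, 360 DMM) were dropped. The 2000 variable genes, chosen without the members and the wider lists, gave 30 principal components, 15 neighbours and Leiden clusters at resolution 1. Clusters took the class with the best mean log2 fold of its markers (pseudocount 5 CPM). They stayed unnamed under a score of 0.75, with fewer than 3 passing markers, or where another class led their top 10 genes. UMIs were summed per population and library and scaled to CPM. Intervals are exact at 95% (Poisson for levels, Clopper-Pearson for shares and ratios) and cover counting error only. A gene was tested in a comparison with at least 50 UMIs over its groups. No p-value was computed, since each group had 1 library. The interval and ratio functions were tested on simulated data.

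The members were given by symbol. All 32 are accounted for by role. Members with the widest range, those past 1.5-fold between surgeries, and Hspa5, Serpinh1, Atf4, Xbp1, Trib3 and Chac1 are given in full. From the wider lists at most 3 members per direction are named. The members and lists were chosen with earlier results of these data known. Of the wider lists, Ero1a and Ero1b were absent by symbol, and Ddit3 was left out because 2 identifiers share it. Positions came from GENCODE vM21. The alternatives changed filters, doublets, resolution, clustering genes, scaling, cell weighting, depth, the UMI minimum, the fold and the load. Removing the trend on gene span and a lower Sparc limit of 50% were added after the data were seen. The bulk table has 6 columns whose names match no sample and was not used here. The periosteum samples were not analysed here. Clustering used scanpy 1.11.5 with leidenalg 0.10.2 and igraph 0.11.9. Tables and intervals were made in Python 3.11.15 with pandas 2.3.3, scipy 1.17.1 and numpy 2.4.6, and plots with matplotlib 3.10.9.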

Additional observations from a re-analysis of the deposited data

How the results depend on the processing

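Of the values that answer a comparison, 166 kept their direction and size under an alternative, 20 moved and 6 reversed. Of the other values 912 kept them, 245 moved and 11 reversed. With at least 1000 genes per cell, 5 members in place of 3 were higher in osteoblast-like than chondrocyte-like cells, the log2 ratio of osteoblast-like over chondrocyte-like cells in sham turned to -0.10 for Hspa5 and 0.31 for Serpinh1, and Sec61b in osteoblast-like cells turned to -0.039 for DMM over sham. At resolution 0.5, 8 members in place of 3 were higher in osteoblast-like than superficial cells and 5 than chondrocyte-like cells. There the osteoblast-like over chondrocyte-like log2 ratios were -0.37 and -0.27 for Hspa5 and 0.44 and 0.42 for Serpinh1 in sham and DMM, and the r of Hspa5 with collagen in DMM was -0.56. With the variable genes centred by library before clustering, and levels left as they were, the r of Hspa5 in sham was 0.016. Median-of-ratios scaling gave 3 members in place of 6 lower in chondrocyte-like than superficial cells, -0.13 for Hspa5 in osteoblast-like over chondrocyte-like cells in sham, and, for DMM over sham, 3 members past 1.5-fold and a median of 0.065 in superficial cells, 0.086 for Serpinh1 there, and 0 members past 1.5-fold and a median of 0.075 in chondrocyte-like cells. The mean over cells gave 2 members past 1.5-fold in superficial cells. Thinning to 2000 UMIs gave 3 members higher in chondrocyte-like than superficial cells and 2 past 1.5-fold between surgeries in chondrocyte-like cells. With a lower limit on the fold, 9 members passed in superficial and 7 in chondrocyte-like cells, and at 2-fold 0 and 0. With other matrix proteins as the load, r was 0.22 and 0.25 for Serpinh1 and 0.22 and 0.12 for Hspa5. Removing the trend on gene span gave 2 members and a median of -0.22 in superficial cells, 3 members and -0.058 for Serpinh1 in chondrocyte-like cells, and 0.066 for Creb3l2 in fibroblast-like cells. With a Sparc limit of 50% the r of Hspa5 was 0.11 and 0.28. The cause of these shifts was not tested. Trib3, Chac1, Syvn1 and Hyou1 are limited by depth. No paired analysis was possible because each group had 1 library.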
